A study of Homo sapiens with 3 samples.

Results

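KDM6B, B4GALT1, GALNT18 and FGD6 are 4 human genes picked because strong or closely spaced SMAD2/3 peaks lay in or near them 16 h after TGFβ stimulation. Their members are every listed peak that overlapped the hg19 span of one of these genes, extended by 30 kb on each side. The rule found 16 of the 5486 listed peaks, namely 13 of 3280 peaks at 16 h and 3 of 2206 at 1.5 h. The genes were selected on the scores and positions of these same peaks, so what follows describes them and tests nothing.

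The peaks come from ChIP-seq, in which DNA bound by a protein is recovered with an antibody and sequenced, here with an antibody that recognises SMAD2 and SMAD3. The cells were MCF10A MII, an H-Ras transformed line of human breast epithelial origin, stimulated with 5 ng/ml TGFβ3 for 16 h or for 1.5 h. Each time had 1 library, so no value has a replicate error and no p-value can be given between the times. Input DNA of untreated MCF10A MII cells was the remaining sample of the 3 and was not analysed here, and no SMAD2/3 ChIP of untreated cells was analysed here. The lists give neither read numbers nor sequencing depth. Each peak carries the authors' MACS score, with a lowest listed value of 50 at 16 h and 50.02 at 1.5 h. A score grows with depth as well as with enrichment, so scores are ranked within a list and are only set side by side between lists. A place with no listed peak at one time may have been just under the authors' threshold there.

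As background, SMAD2 and SMAD3 are phosphorylated by the activated TGFβ receptor, join SMAD4 and enter the nucleus, where they bind DNA with partner factors such as AP-1. SMAD3 and SMAD4 recognise the short SMAD box and GC-rich variants of it, which are common in any genome, so partner factors and open chromatin largely set where binding is found. In breast epithelial cells, long TGFβ exposure is known for driving epithelial-mesenchymal transition. The 4 genes do not form a pathway. KDM6B encodes a demethylase that removes the repressive methylation of lysine 27 of histone H3 and has been linked to epithelial-mesenchymal transition in mammary cells. B4GALT1 encodes a Golgi enzyme that adds galactose to N-acetylglucosamine on glycans and, with α-lactalbumin, makes lactose in the lactating breast. GALNT18 belongs to the family of polypeptide N-acetylgalactosaminyltransferases, which start mucin-type O-glycans. FGD6 encodes a guanine nucleotide exchange factor for the small GTPase CDC42, which shapes the actin cytoskeleton.

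At 16 h all 4 windows held peaks, while at 1.5 h peaks were listed in the windows of KDM6B and B4GALT1 only. FGD6 held 6 peaks at 16 h and 0 at 1.5 h. KDM6B held 4 peaks at 16 h and 1 at 1.5 h. B4GALT1 held 2 peaks at 16 h and 2 at 1.5 h, at different places. GALNT18 held 1 peak at 16 h and 0 at 1.5 h. Together the windows covered 808 kb, of which 3075 bp lay under 16 h peaks and 501 bp under 1.5 h peaks. Of the 13 peaks at 16 h, 12 overlapped no 1.5 h peak by even 1 bp, beside 83.4% of the whole 16 h list. Of the 3 peaks at 1.5 h, 2 overlapped no 16 h peak, beside 74.7% of the whole 1.5 h list. Because the genes were picked for late peaks, nothing is read from these shares.

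**Figure D1:**
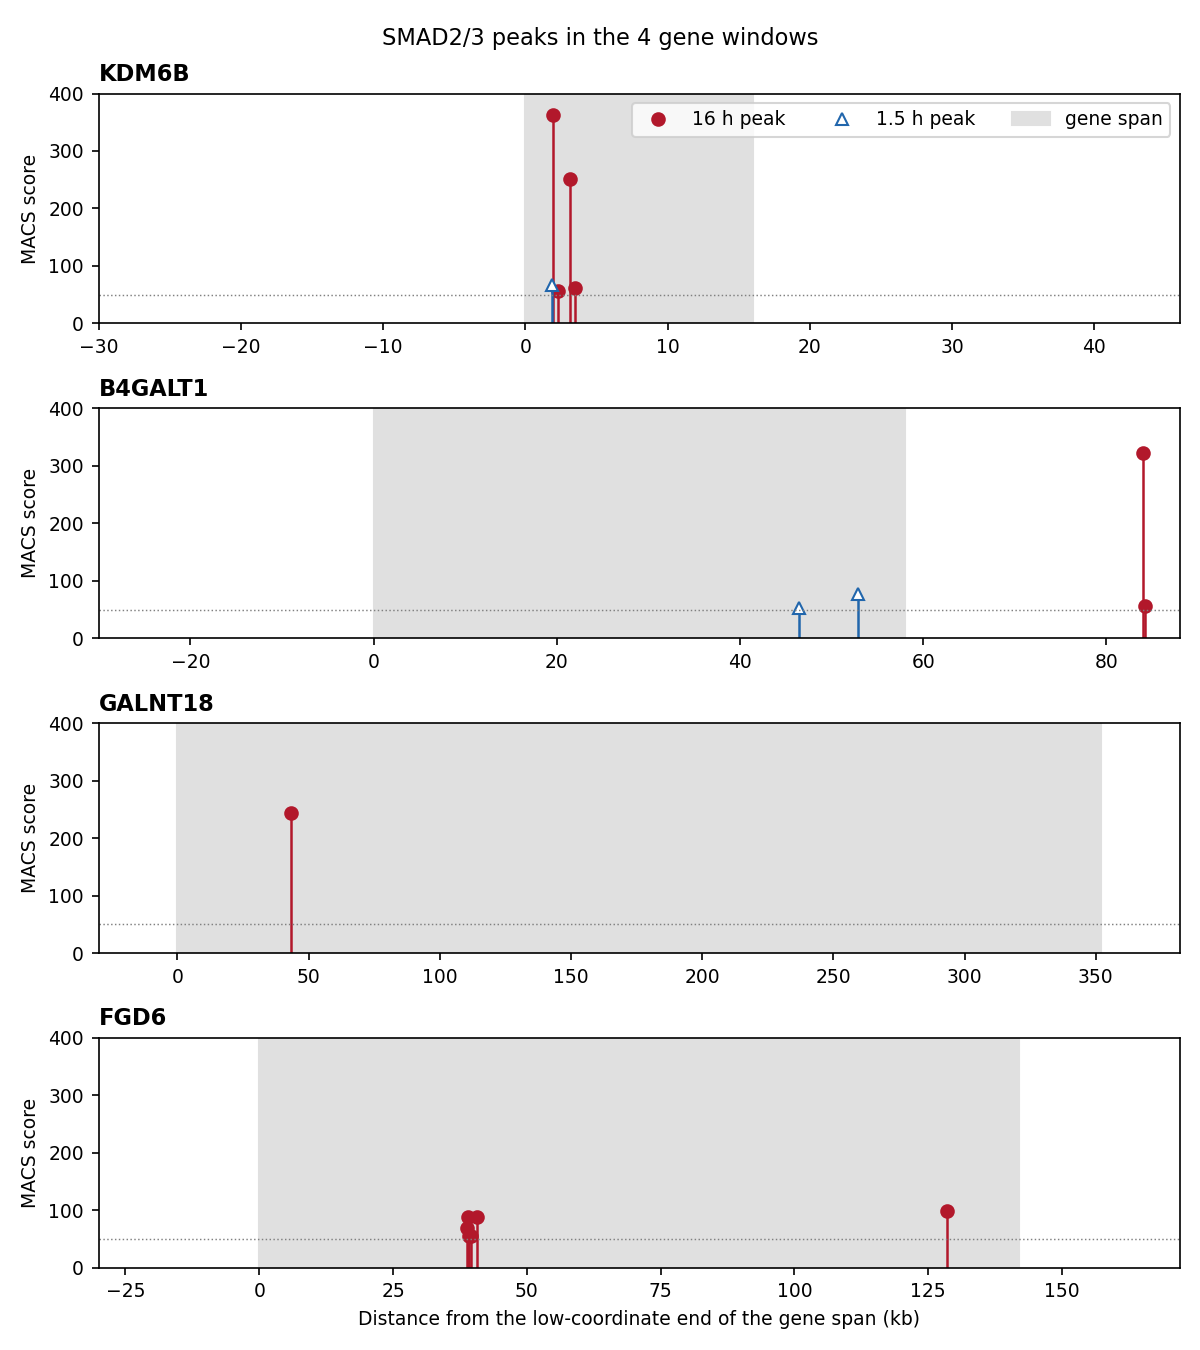
SMAD2/3 peaks in the 4 gene windows. The horizontal axis is the distance in kb from the low-coordinate end of the gene span, drawn to a different scale for each gene, and the vertical axis is the authors' MACS score of each peak; grey marks the span, filled circles are 16 h peaks, open triangles 1.5 h peaks, and the dotted line is a score of 50. Peaks at 16 h reach 363 at KDM6B, 322 at B4GALT1 and 243 at GALNT18 but 98.7 at FGD6, and no 1.5 h peak exceeds 76.2.

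Strong or closely spaced late peaks were the ground for choosing the genes. A strong late site lay in 3 of the windows, and weaker, mostly clustered peaks in that of FGD6. The late peaks at KDM6B were closely spaced as well, and the strong site of B4GALT1 lay about 26 kb outside the gene span. A score of 200 or more was reached by 4 of the 13 peaks at 16 h, of which 2 lay at KDM6B, 1 at B4GALT1 and 1 at GALNT18, beside 3.57% of the 16 h list. These 4 were also the only peaks in the windows to reach 100, beside 11.5% of the 16 h list. None of the 3 peaks at 1.5 h reached 100, beside 20.1% of the 1.5 h list. Among the other 9 peaks at 16 h, 5 scored between 60 and 100 and 4 scored under 60. The whole 16 h list of 3280 peaks held 904 and 1999 in these classes.

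KDM6B carried the strongest late site of the 4 genes. Its 4 peaks at 16 h lay on chromosome 17 within 1828 bp, at chr17:7744700-7746527 (hg19), about 2 to 3 kb inside the low end of the span. The first, at 7744700 to 7745184, scored 363 and ranked 34 of 3280. The third, at 7745931 to 7746373, scored 252 and ranked 72. These are both wide peaks, of 485 and 443 bp, and the gap from the second peak to the third was 616 bp. Each was followed on its high-coordinate side by a narrow, weak peak. The second peak, 111 bp wide with a score of 55.9, began 19 bp after the first ended, and the fourth, 130 bp wide with a score of 62.4, began 24 bp after the third ended.

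KDM6B was also the only one of the 4 genes with a site listed at both times. Its 1.5 h peak, at 7744805 to 7744996, was 192 bp wide, scored 66.6 and ranked 1003 of 2206. It lay wholly within the first 16 h peak, covering 39.6% of that peak, with the midpoints 41.5 bp apart. The other late KDM6B peaks began 207 bp, 934 bp and 1401 bp beyond the end of the 1.5 h peak. The first 16 h peak scored above 98.96% of its list, and the 1.5 h peak, near the middle of its own, above 54.5%. The second strong site beside it overlapped no 1.5 h peak. The nearest other 1.5 h peak was 489 kb away.

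The start of KDM6B used matters for these distances. In RefSeq (GRCh38.p14), KDM6B (gene ID 23135) is a protein-coding gene on the plus strand of 20580 bp with 2 starts that lie 5700 bp apart. From the downstream start to the end it measures 14880 bp, which is nearer to the 16 kb span used here. The neighbouring protein-coding genes in that table are DNAH2 on the low side and TMEM88 on the high side. KDM6B is the only one of the 4 genes with late peaks within a few kb of the start end of its span, so the 250 bases before each of its RefSeq starts are shown. They are on GRCh38.p14, plus strand, at chr17:7833967-7834216 for the upstream start and chr17:7839667-7839916 for the downstream one. No hg19 sequence was used, so the bases under the peaks themselves are not shown. Capitals mark the GC-rich SMAD element GGCGC.
KDM6B upstream start: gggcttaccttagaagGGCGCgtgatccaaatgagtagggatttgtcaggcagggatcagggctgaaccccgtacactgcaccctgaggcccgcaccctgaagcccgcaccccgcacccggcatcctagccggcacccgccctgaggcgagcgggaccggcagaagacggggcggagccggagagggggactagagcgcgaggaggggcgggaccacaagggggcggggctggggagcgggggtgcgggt
KDM6B downstream start: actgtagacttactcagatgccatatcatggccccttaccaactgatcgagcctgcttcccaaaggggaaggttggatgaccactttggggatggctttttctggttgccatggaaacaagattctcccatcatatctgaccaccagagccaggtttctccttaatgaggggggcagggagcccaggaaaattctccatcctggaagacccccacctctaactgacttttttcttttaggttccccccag

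Both strands were searched for the SMAD box CAGAC, the GC-rich elements GGCGC and GGCCG, and the AP-1 element TGANTCA. The upstream KDM6B window held 1 GGCGC and was 70.4% G and C, and the downstream window held none of the 4 motifs and was 50.4% G and C. Over all 35116 RefSeq windows of this length, the median was 58.0% G and C. CAGAC occurred in 38.0% of those windows, GGCGC in 44.5%, GGCCG in 44.7% and TGANTCA in 6.57%. RefSeq windows were at hand for 3 of the 4 genes. The FGD6 window, at 65.2% G and C, held 1 CAGAC, 4 GGCGC and 2 GGCCG. The 2 overlapping B4GALT1 windows, at 80.0% and 78.0% G and C, held 6 and 3 GGCGC and 2 GGCCG each, and 1 of them held 1 CAGAC. No window of these 3 genes held TGANTCA. A match is only a description of letters, and the elements can overlap each other in GC-rich sequence. Overlapping matches on the 2 strands were counted separately, so 1 GGCGCC gives 2 GGCGC and 1 CGGCCG gives 2 GGCCG. The percentages count windows with any match, whatever its number.

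B4GALT1 had its early and late peaks at different places. The late pair lay on chromosome 9 at chr9:33193733-33194267 (hg19), about 26 kb beyond the high end of the span. RefSeq places B4GALT1 (gene ID 2683) on the minus strand, so this is the side of its start. The first peak of the pair, at 33193733 to 33194154, was 422 bp wide, scored 322 and ranked 42 of 3280. The second, at 33194192 to 33194267, was 76 bp wide, scored 56.2 and began 37 bp after the first ended.

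The 1.5 h peaks of B4GALT1 lay inside the span, about 12 and 5 kb from its high end. The first, at 33156422 to 33156530, scored 52.1 and ranked 2032 of 2206, and the second, at 33162797 to 33162996, scored 76.2 and ranked 754. The nearest early and late peaks were 30.7 kb apart, so no site of this gene was listed at both times. In RefSeq the gene is longer, at 81013 bp against the 58 kb span used here, overlaps the antisense gene B4GALT1-AS1 and has SMU1 and SPINK4 as its protein-coding neighbours. The starts in the RefSeq promoter table lie 177 bp apart, but the gene as a whole reaches 17753 bp beyond the outer one on the high side in GRCh38, so the distance of the late pair from the gene's edge depends on the gene model taken. Its nearest gene was not determined.

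GALNT18 held a single late peak, and no other peak of either list was near it. The peak, on chromosome 11 at chr11:11334937-11335378 (hg19), was 442 bp wide, scored 243 and ranked 80 of 3280. It lay inside the gene, about 43 kb from the low end and 309 kb from the high end of a 352 kb span. The nearest other 16 h peak was 413 kb away. The nearest 1.5 h peak was 414 kb away and scored 160.5. In RefSeq, GALNT18 (gene ID 374378) overlaps CSNK2A3 and GALNT18-AS1, among others, and lies between ZBED5 and USP47. Whether the peak falls in an exon or an intron of GALNT18, or in an overlapping gene, was not determined.

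FGD6 held the most late peaks of the 4 genes and the lowest scores. Of its 6 peaks at 16 h, 5 lay on chromosome 12 within 1953 bp, at chr12:95508785-95510737 (hg19), about 39 to 41 kb from the low end of the span. In order of position they scored 69.8, 89.1, 55.1, 55.8 and 89.1, and ranked between 466 and 1768 of 3280. The first 3 nearly touched, with gaps of 4 and 7 bp, the fourth followed after 205 bp and the fifth after 975 bp. Together these 5 peaks covered 762 bp, or 39.0% of the stretch.

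The sixth FGD6 peak, at 95598391 to 95598594, stood alone 87.7 kb from the cluster. It scored 98.7, ranked 386 and was 204 bp wide, the highest score and the largest width at this gene. RefSeq has FGD6 (gene ID 55785) on the minus strand, so this peak, about 14 kb from the high end, lies nearer the start of the gene than the cluster, which is about 101 to 103 kb from that end. Its neighbours there are NR2C1 and VEZT. The 1.5 h peak nearest to any FGD6 peak was 161 kb from the cluster and scored 53.3.

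**Figure D2:**
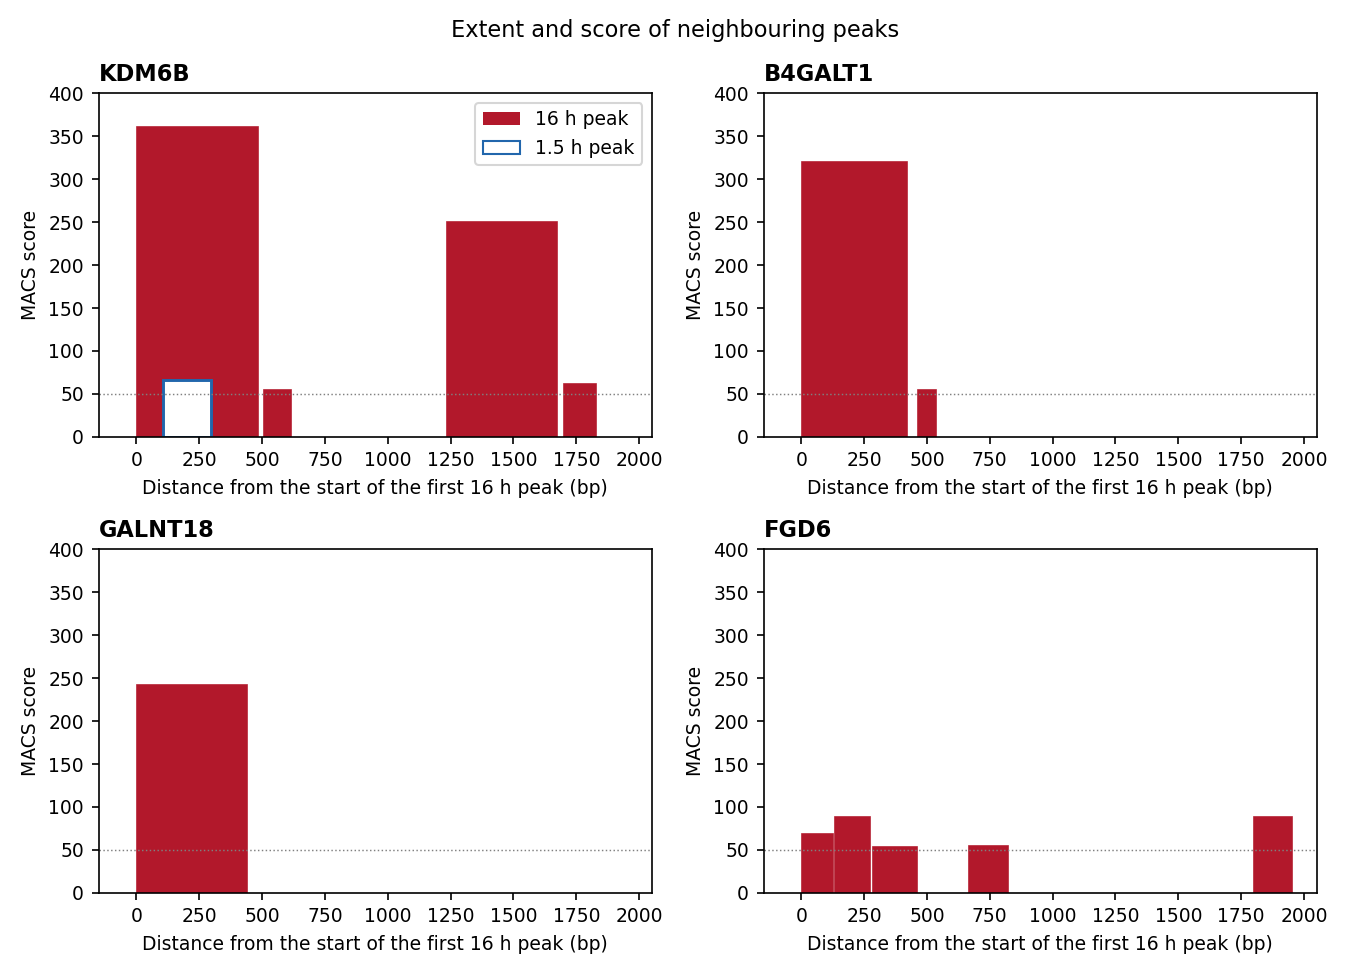
Extent and score of neighbouring peaks at each gene. The horizontal axis is the distance in bp from the start of the first 16 h peak, on the same scale in every panel, and the vertical axis is the MACS score; each filled bar is a 16 h peak drawn at its true width, the open bar is the 1.5 h peak of KDM6B, and the dotted line is a score of 50. Strong peaks at KDM6B and B4GALT1 have a narrow peak 19 to 37 bp beyond them, GALNT18 has 1 peak alone, and the FGD6 cluster has 5 peaks of 55.1 to 89.1 (the sixth FGD6 peak and the B4GALT1 1.5 h peaks lie outside the drawn range).

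Most late peaks in the windows, at KDM6B, B4GALT1 and FGD6, lay close to another late peak. None of the 3 early peaks lay close to another early peak, but 3 peaks are too few to differ from the shares of their list. In the whole lists close spacing was commoner at 1.5 h. At 16 h, 9 of the 13 peaks had another 16 h peak at most 50 bp away, beside 7.93% of that list, and 10 had one at most 500 bp away, beside 13.0%. At 1.5 h, 0 of the 3 peaks had another 1.5 h peak that close, beside 16.2% of that list at 50 bp and 33.1% at 500 bp. Of the 4 peaks scoring 200 or more, the 2 at KDM6B and the 1 at B4GALT1 had such a neighbour at most 50 bp away, beside 16.2% of all 117 peaks of that score at 16 h. Clustering was part of the choice of genes, so these counts are a description. The FGD6 cluster was 1 of 4 runs of at least 5 peaks at 16 h, where a run joins peaks at most 2 kb apart, and 1 of 2 such runs with no 1.5 h peak within 10 kb. The KDM6B group was 1 of 9 runs of at least 4. The 1.5 h list held 9 runs of at least 5 peaks, of which 2 also had no 16 h peak within 10 kb, and 36 of at least 4. Peaks a few bp apart may be pieces of 1 enriched stretch, and with neighbours up to 500 bp apart joined, the 13 late peaks became 7. FGD6 then had 3, KDM6B 2, and B4GALT1 and GALNT18 1 each.

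**Figure D3:**
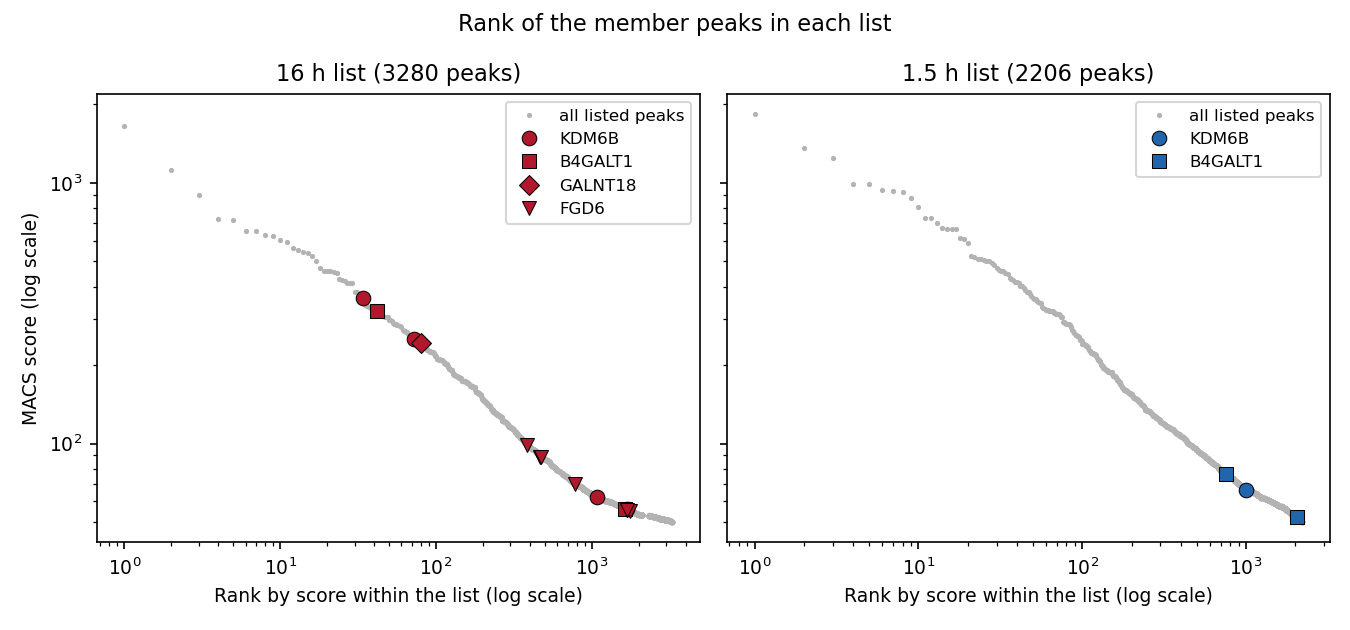
Rank of the member peaks in each list, 16 h on the left and 1.5 h on the right. Both axes are logarithmic, with the rank by score within the list on the horizontal axis and the MACS score on the vertical axis; grey points are all listed peaks and coloured symbols the peaks of each gene. The strongest late peaks of KDM6B, B4GALT1 and GALNT18 rank 34, 42 and 80 of 3280, FGD6 begins at 386, and the best rank at 1.5 h is 754 of 2206.

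Among strong late sites without an early partner, these genes held 3 of 19. Of the 117 peaks scoring 200 or more at 16 h, 19 (16.2%) overlapped no 1.5 h peak. By score the B4GALT1 peak was the third of them, the second strong KDM6B peak the fifth and the GALNT18 peak the eighth. Their distances to the nearest 1.5 h peak differed widely, at 30.7 kb for B4GALT1, 0.934 kb for KDM6B and 414 kb for GALNT18. Over all 19 the distance ran from 0.102 to 8191 kb with a median of 162 kb, so B4GALT1 and KDM6B lay nearer to early binding than the median and GALNT18 farther from it.

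Peak width, which goes with score in both lists, was at the strong sites within the middle range of 16 h peaks of like score. The median width of the whole 16 h list was 108 bp. The 4 strong peaks were 422 to 485 bp wide, within the quartiles of 380 and 500 bp of the 88 peaks scoring 200 to 400 at 16 h. Of the 5 peaks scoring 60 to 100, 4 lay within the quartiles of 104 and 183 bp for that class, and the lone FGD6 peak, at 204 bp, lay above them. Under a score of 60 the genes differed. The FGD6 peaks of 178 and 159 bp were wider than the upper quartile of 109 bp, and the KDM6B peak of 111 bp was just above it. The B4GALT1 peak of 76 bp was narrower than the lower quartile of 93 bp. At 1.5 h the KDM6B peak of 192 bp and the higher B4GALT1 peak of 200 bp were wider than the upper quartile of 172 bp for scores of 60 to 100, and the lower B4GALT1 peak of 109 bp lay within the quartiles of 99 and 127 bp for its class.

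**Figure D4:**
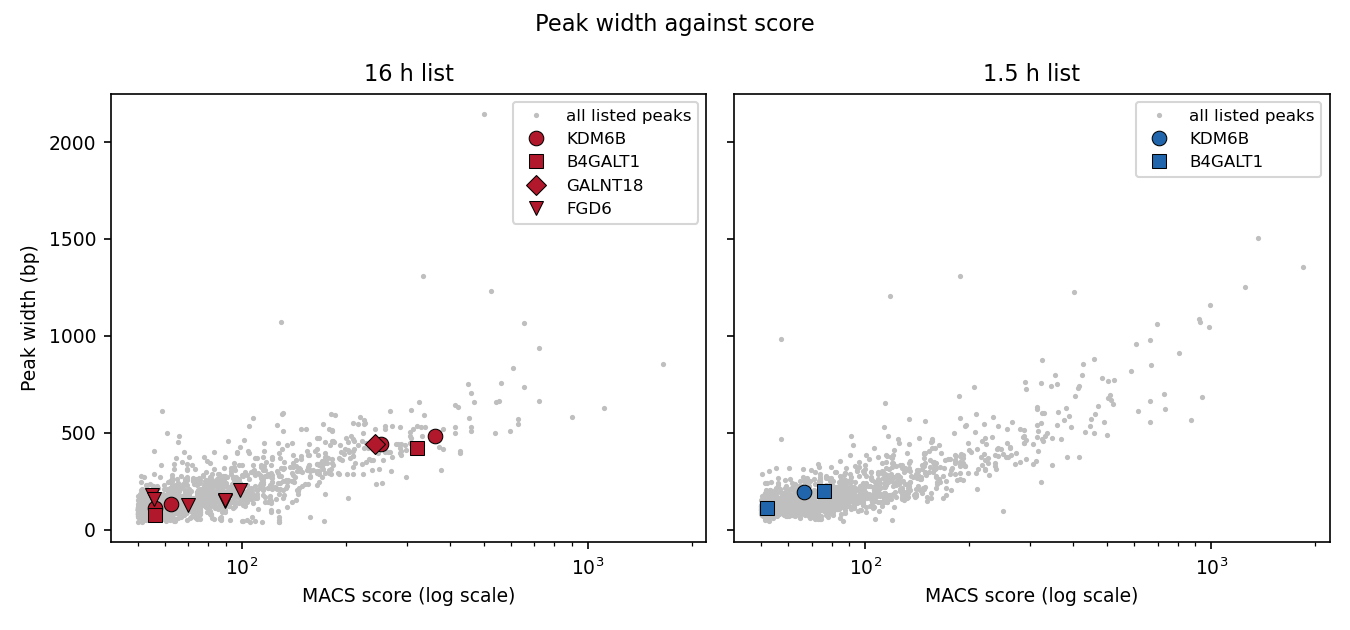
Peak width against score, 16 h on the left and 1.5 h on the right. The horizontal axis is the MACS score on a logarithmic scale and the vertical axis the peak width in bp; grey points are all listed peaks and coloured symbols the peaks of each gene. The 4 strong late peaks, 422 to 485 bp wide, lie among peaks of like score, and at 1.5 h the members are 109 to 200 bp wide.

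The limit of 30 kb did not divide nearby peaks. The member nearest to the edge of its window was the second peak of the B4GALT1 late pair, 3.73 kb inside. The nearest peaks outside any window lay on the low side of FGD6, 91.6 kb beyond the edge at 16 h with a score of 183 and 92.0 kb beyond it at 1.5 h with a score of 53.3. At B4GALT1 the nearest outside peak at 16 h was 568 kb beyond the edge and at 1.5 h 110 kb. At KDM6B these distances were 457 and 458 kb, and at GALNT18 340 and 341 kb. At least 91.6 kb on each side of every window thus held no listed peak at either time. How usual such gaps are in these lists was not determined.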

How the data were processed

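The authors deposited 1 BED list of peaks per ChIP library, without a header, in which each peak has a MACS score. Per the submitters' processing notes, Bowtie 1.1.0, Picard and MACS 1.4.2 were used on hg19. The sources used here do not state settings, duplicate handling or whether the input served as control. In both lists the lowest scores match minus 10 times log10(p) at a p of 1e-05. Starts were made 1-based, and gaps count the bases between peaks. The hg19 gene spans were fixed with the choice of genes, in whole kb, so distances from their ends carry that error. Peaks of the 2 lists were shared if they overlapped by at least 1 bp. RefSeq tables of GRCh38.p14 gave names, lengths, strands and promoter sequence, and no coordinate was converted. Exon or intron was not determined. Calculations used Python 3.11.15, pandas 2.3.3, numpy 2.4.6 and matplotlib 3.10.9. The overlap code was tested on simulated data. The rule for named items took every peak of the 4 windows, and 10 alternatives were tried. Members and groupings were chosen with earlier results of these data known.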

Additional observations from a re-analysis of the deposited data

How the results depend on the processing

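Because the genes were picked for late peaks, a surplus of late peaks was built into the choice, and nothing is read from its direction. Over the 4 windows together the surplus remained under all 7 alternatives that bear on it, but its size moved. With a score of at least 100, the windows held 4 peaks at 16 h and 0 at 1.5 h, a difference of 4 against 10 in the full lists. FGD6 then held 0, and all 4 late peaks were without an early partner, since the KDM6B 1.5 h peak was removed. With neighbours up to 500 bp joined there were 7 late peaks, 6 of them at 16 h only, and a difference of 4. With a score of at least 60, 1 of the early peaks was found at 1.5 h only, and 9 late peaks were left. Spans alone, or extended by 10 kb, left B4GALT1 without its late pair and 11 late peaks in all. B4GALT1 then had 0 late peaks against 2 early ones, the other direction. At the main setting this gene had 2 of each, and with neighbours joined 1 late against 2 early. Extension by 100 kb changed no count and could not, since the nearest peak outside a window lay 91.6 kb beyond its 30 kb edge. Bringing the lists near to equal length, by a 16 h score of at least 52.99, also changed no count. Because of ties that cut left 2324 peaks at 16 h against 2206 at 1.5 h, and it lay below the weakest late member, at 55.1. Where overlap had to cover 50% of both peaks, the KDM6B site no longer counted as listed at both times, so all 13 late and all 3 early peaks were found at a single time. Where peaks up to 500 bp apart counted as shared, 11 late peaks were at 16 h only, and up to 1 kb apart 10, since the second strong KDM6B peak then had a partner. No paired analysis was possible because there was 1 library at each time, which also meant that none could be omitted. Without known depth, whether a site listed at a single time was unbound at the other was not tested.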
